A study of Homo sapiens with 4 samples.

Results

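The subject is the RNA of 3 innate immune signalling genes, EIF2AK2, TRAF7 and ILRUN (also called C6orf106), in iCLIP reads of the RNA helicase MOV10. The members are the deposited regions that overlap the limits of these genes on the gene's strand, on build hg19. There were 3 such regions of 1181 in all, 1 in each gene. They held 6 of 4021 aligned reads in experiment 1 and 294 of 6032 in experiment 2. Membership was thus chosen by where reads lay and by gene name, so that each gene has a region with reads of both experiments is no finding.

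The samples were HEK293F cells, a human embryonic kidney line grown in suspension and a single established line. Cells were irradiated with UV light to link protein to RNA. Protein was then pulled down with a rabbit antibody to MOV10 or, as control, with an irrelevant rabbit antibody raised against zebra finch FMRP. The labels give 4 libraries, 1 of each pull-down in each of 2 experiments, which they number as replicates, and name no other treatment. They do not say whether the experiments were separate cultures. Both pull-downs of an experiment point to the same read list, and no column says which pull-down a read came from. A read below is therefore a read of an experiment, and no gene is described as enriched by the MOV10 antibody. The identity of the cells was not checked against markers, since reads confined to listed regions do not give transcript levels.

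EIF2AK2 encodes PKR, an interferon-induced kinase that is switched on by double-stranded RNA and phosphorylates the translation initiation factor eIF2 alpha, which lowers protein synthesis in infected cells. TRAF7 is a RING-type ubiquitin ligase of the TRAF family of signalling adaptors and binds the kinase MAP3K3. ILRUN is an inhibitor of antiviral and inflammatory cytokine genes that acts on the transcription factor IRF3. MOV10 is a helicase known for restricting retroviruses and retrotransposons and for its place in RNA decay and microRNA-guided silencing. In iCLIP the copying of RNA into cDNA often halts where protein was attached, which makes the base just before a read's 5' end the candidate contact.

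All 3 regions lay toward the 3' limit of their gene. EIF2AK2 (ENSG00000055332) spans chr2:37326353-37384208 on the minus strand, and its region, chr2:37331628-37331745, was 118 nt wide and began after 90.7% of the gene's length. TRAF7 (ENSG00000131653) spans chr16:2205799-2228130 on the plus strand, and its region, chr16:2226061-2226123, was 63 nt wide and also began after 90.7%. ILRUN (ENSG00000196821) spans chr6:34555065-34664636 on the minus strand, and its region, chr6:34555802-34555865, was 64 nt wide and began after 99.3%. The regions ended 5275 nt before the 3' limit of EIF2AK2, 2007 nt before that of TRAF7 and 737 nt before that of ILRUN. The annotation used here, GENCODE release 29, is of another build, so the regions were not placed in an exon, intron or UTR. As lengths alone, the last exon that reaches the gene's 3' limit holds up to 8066 nt of UTR in EIF2AK2, 1558 nt in TRAF7 and 3280 nt in ILRUN there. The region's distance from the limit was shorter than that length in EIF2AK2 and ILRUN and longer in TRAF7. For TRAF7 the gene was 22332 nt long by the hg19 limits and 22432 nt in release 29, so its 3' limit may not be the same point in both.

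No other listed region fell in these genes. The nearest outside the limits were 75.6 kb from TRAF7 (chr16:2130172-2130240, with 6 reads in experiment 1 and 3 in experiment 2), 307 kb from ILRUN (chr6:34247668-34247716, with 1 read in each) and 658 kb from EIF2AK2 (chr2:36668440-36668484, with 7 and 1). The region of EIF2AK2 was wide for the list, with 5 of 1181 regions wider and a median of 38 nt. Those of TRAF7 and ILRUN had 163 and 150 regions wider. Other genes of double-stranded RNA sensing, TRAF and NF-kappaB signalling and the IRF3 axis, as well as the base sequence of the regions, were not analysed here, since neither an annotation nor a genome of build hg19 was used.

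The kinase gene EIF2AK2 gave few reads in either experiment. Experiment 1 held 4 reads, each a distinct fragment, and experiment 2 held 1. In experiment 1, 3 fragments shared the 5' end 37331745, with lengths of 84, 81 and 78 nt. The fourth ran from 37331692 to 37331652, 41 nt along the transcript, and the copy number read from its name was 3, the most for this gene. The fragment of experiment 2 began at the same base, 37331692, and ran 65 nt to 37331628, 24 nt further than its counterpart. Thus the 2 experiments shared a 5' end, with 37331693 as the base before it, but no 3' end. The other 5' end, 53 nt upstream, was seen in experiment 1 alone, where a single read in experiment 2 could not show it.

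**Figure D1:**
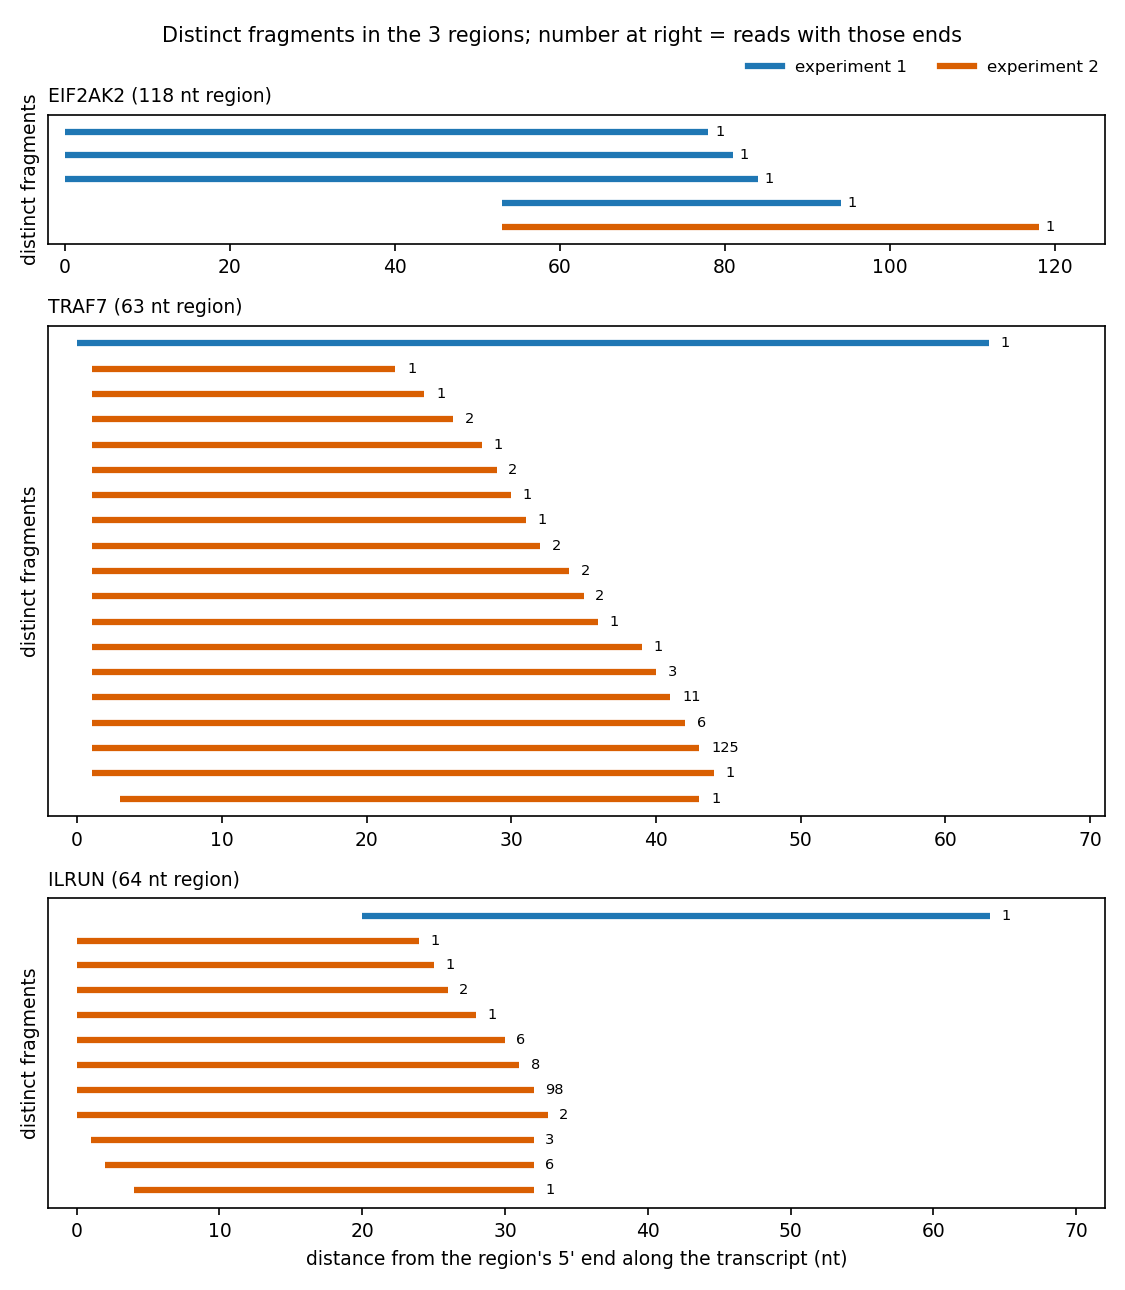
Each line is a distinct fragment (reads with the same ends drawn once) along the transcript, in nt from the 5' end of the region, with the number of reads beside it, blue for experiment 1 and orange for experiment 2. In TRAF7 the fragments of experiment 2 start at 1 base in 163 of 164 reads and stop at many, and in ILRUN the single fragment of experiment 1 begins 20 nt downstream of the main 5' end of experiment 2.

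The ubiquitin ligase gene TRAF7 had 1 read in experiment 1 and 164 in experiment 2. The read of experiment 1 was 63 nt long, from 2226061 to 2226123. In experiment 2, 163 of the 164 reads (99.4%) began at 2226062, 1 nt downstream of the start in experiment 1, and the last began at 2226064. Their 3' ends were spread over 17 positions from 2226082 to 2226104, with 126 reads ending at 2226103. The 164 reads formed 18 distinct fragments of 21 to 43 nt. All of them lay inside the fragment of experiment 1 and ended at least 19 nt short of it.

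The reads of TRAF7 were mostly versions of 1 fragment. The fragment from 2226062 to 2226103, 42 nt long, held 125 reads and 1991 of 2043 copies (97.5%). Copies are read here as the number of identical sequences behind a read, an inference from a number near the end of the read's name. With both ends allowed to differ by 3 nt, 147 reads (89.6%) matched that fragment. The other 17 reads, of 12 distinct fragments, were all of 1 copy and shorter.

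The inhibitor gene ILRUN had 1 read in experiment 1 and 129 in experiment 2. The read of experiment 1 ran 44 nt from 34555845 to 34555802. In experiment 2, 119 of 129 reads (92.2%) began at 34555865, 20 nt upstream, and the others began at 34555864 (3 reads), 34555863 (6 reads) and 34555861 (1 read). Of the 129, 108 ended at 34555834, so the main fragment was 32 nt long, with 98 reads and 2318 of 2359 copies (98.3%). It overlapped the fragment of experiment 1 by 12 nt. The region listed for ILRUN is thus the union of fragments with different 5' and 3' ends in the 2 experiments.

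Both genes stood near the top of experiment 2 and at the bottom of experiment 1. In experiment 2, 9 of 1181 regions had more reads than TRAF7 and 13 more than ILRUN, and the median region had 1. By distinct fragments, 2 regions lay above TRAF7 and 9 above ILRUN. In experiment 1, 840 regions had more reads than either, and 341 regions, these included, had 1 read. Few reads in experiment 1 were usual over the whole list, where the median region had 2 and 28.9% of regions had 1. Of the 19 regions with at least 50 reads in experiment 2, 17 had 1 to 8 reads in experiment 1, and 4 had 1. Low numbers there are thus not particular to read-rich regions. EIF2AK2, with 4 reads and 1, did not share the placement of TRAF7 and ILRUN. In experiment 1, 182 regions lay above it by reads and 39 by distinct fragments. In experiment 2 it was one of 618 regions with 1 read, the median.

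**Figure D2:**
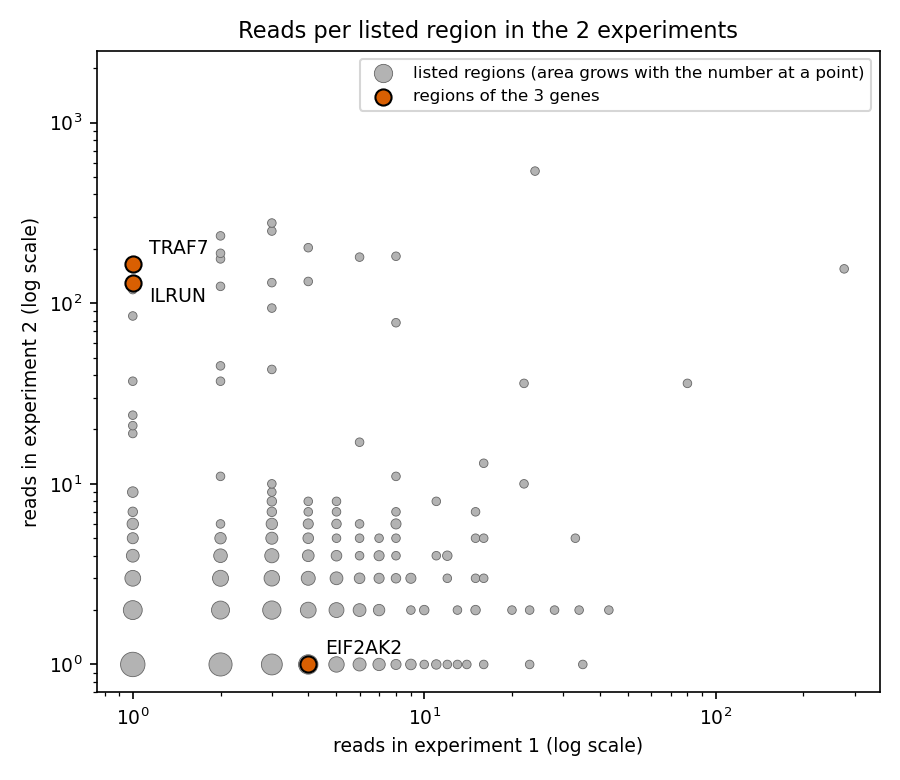
Each grey point is a pair of read numbers in experiment 1 (horizontal, log scale) and experiment 2 (vertical, log scale), with its area growing with the number of regions there, and orange points are the 3 genes. TRAF7 (1 and 164 reads) and ILRUN (1 and 129) lie at the upper left, and EIF2AK2 (4 and 1) lies among the many regions with 1 read in experiment 2.

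The share of reads in each region was compared between the 2 experiments, whose read lists each pool both pull-downs. With 1 list for each experiment, the test does not measure the spread between replicates of a pull-down. Two-sided Fisher's exact tests were run on all 1181 regions with Benjamini-Hochberg adjustment. TRAF7 held 0.0249% of the reads of experiment 1 (95% exact Clopper-Pearson interval 6.30e-04 to 0.138) and 2.72% of experiment 2 (2.32 to 3.16). The ratio of its shares was 109 (exact interval 19.3 to 4344, Fisher's exact test, adjusted p = 2.66e-33). ILRUN held 0.0249% and 2.14% (1.79 to 2.54), a ratio of 86 (15.2 to 3423, Fisher's exact test, adjusted p = 1.58e-25). EIF2AK2 held 0.0995% (0.0271 to 0.255) and 0.0166% (4.20e-04 to 0.0923), a ratio of 0.167 (0.00338 to 1.68), which did not pass (Fisher's exact test, adjusted p = 0.473). So 2 of the 3 genes passed, both higher in experiment 2, against 4.57% of all regions in either direction and 2.12% higher in experiment 2. Intervals cover counting error alone. Reads of 1 fragment may not be independent molecules, which was not tested, so these p-values can be too small.

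Counted by distinct fragments, 5 of 1181 regions (0.423%) passed, and TRAF7 was 1 of them. It had 1 fragment of 1806 in experiment 1 and 18 of 1656 in experiment 2, a ratio of 19.6 (exact interval 3.1 to 818, Fisher's exact test, adjusted p = 0.00834). ILRUN, with 1 and 11 fragments, had a ratio of 12 (1.74 to 516) and did not pass (Fisher's exact test, adjusted p = 0.235). For EIF2AK2 the 4 and 1 fragments gave a ratio of 0.273 (0.00554 to 2.76, Fisher's exact test, adjusted p = 1). Summed copies gave larger ratios, with no test. TRAF7 had 1 copy in experiment 1 and 2043 in experiment 2, a log2 ratio of shares of 8.58 against 6.77 by reads. For ILRUN, 1 and 2359 copies gave 8.79 against 6.43, and for EIF2AK2, 6 and 1 copies gave -5.00 against -2.59. ILRUN thus stood above TRAF7 by copies and below it by reads. By distinct 5' ends the numbers were closer than by fragments, 1 in experiment 1 and 2 in experiment 2 for TRAF7, 1 and 4 for ILRUN and 2 and 1 for EIF2AK2. The numbers of TRAF7 fragments therefore rest on different 3' ends behind nearly a single 5' end.

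Read names fall into 3 groups by their prefix (06, 07 or no prefix), and the high numbers of TRAF7 and ILRUN were present in each. In experiment 2 TRAF7 had 52, 52 and 60 reads in these groups, with most copied reads of 480, 478 and 729 copies, and all 3 of those reads had the ends of the main fragment. ILRUN had 46, 46 and 37 reads, with most copied reads of 627, 641 and 916 copies, again at 1 pair of ends. In experiment 1 the read of TRAF7 was in group 06 and that of ILRUN in the group without prefix. The other groups held 0 reads of 1309 to 1383. At 3 counts of the total, a count of 0 there allows shares of up to 0.229% (ILRUN in 06), 0.217% (either gene in 07) and 0.226% (TRAF7 without prefix), and the upper ends of the exact intervals were 0.281%, 0.266% and 0.277%. Both genes passed within each group (Fisher's exact test, adjusted p between 5.81e-13 and 2.61e-06), where 1.61%, 1.61% and 1.52% of regions passed with a higher share in experiment 2. What the groups stand for is not given, and they are parts of the same read lists, so these tests are not repeats of the experiment. They again count reads of 1 fragment as independent, and distinct fragments were not tested within groups. The reads of EIF2AK2 were all in groups 06 and 07, and it passed in none of the 3.

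Of the 18 distinct fragments of TRAF7 in experiment 2, 4 occurred in all 3 groups of names, 5 in 2 groups and 9 in 1. For ILRUN, 4 of 11 occurred in all 3 groups, 2 in 2 and 5 in 1. Over all regions of experiment 2, 245 of 1656 fragments occurred in all 3 groups and 1009 in 1.

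**Figure D3:**
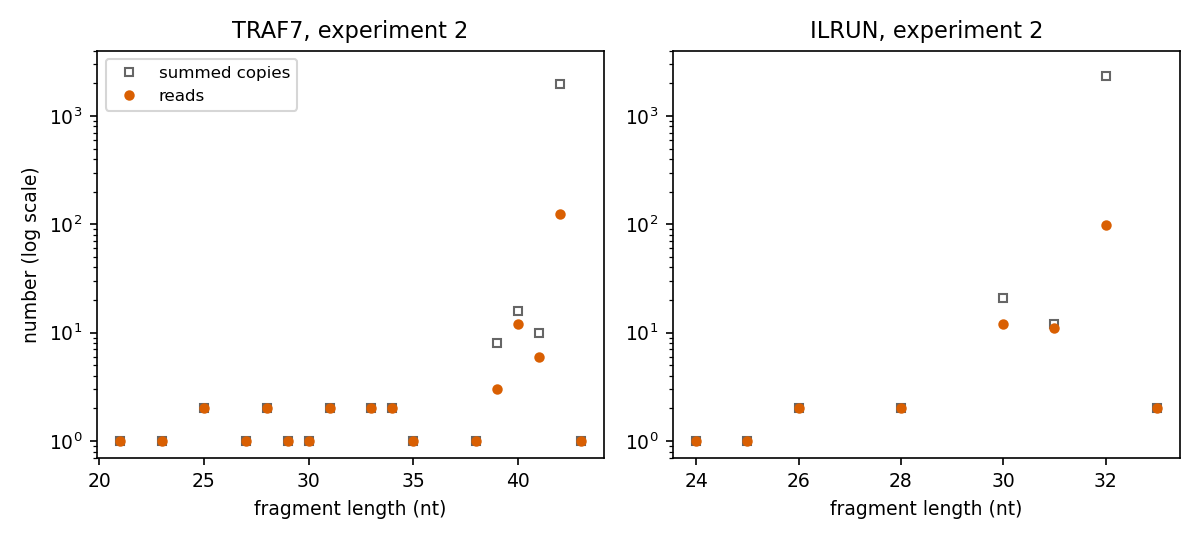
Reads (filled circles) and summed copies (open squares) by fragment length in nt, on a log scale, for TRAF7 and ILRUN in experiment 2. Most reads have 1 length, 42 nt in TRAF7 and 32 nt in ILRUN, and the shorter fragments of TRAF7, from 21 to 38 nt, have 1 or 2 reads each.

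Fragments of these genes did not have the ends that most regions repeated between experiments. Fragments that ended at 1 base in both experiments and began in experiment 2 either 0 or 1 nt further downstream were found in 1019 of 1181 regions (86.3%), and in 0 of the 3 genes. At 0 nt alone they were found in 223 regions (18.9%), so most of these matches carried a shift of 1 nt. With up to 3 nt allowed at both ends they were found in 1064 regions (90.1%), and again in 0 of the 3. The nearest 3' ends of the 2 experiments lay 24 nt apart in EIF2AK2, 19 nt in TRAF7 and 31 nt in ILRUN. Gaps as large or larger occurred in 20, 32 and 9 of the 1181 regions. A narrow region has little room for such gaps at either end. The 3 regions were 118, 63 and 64 nt wide against a median of 38 nt, so such counts are tied to width. By the 5' end alone, whatever the 3' end, 1072 regions (90.8%) matched, among them EIF2AK2 and TRAF7. A match at 0 nt, as in EIF2AK2, occurred in 248 regions (21%), and one at 1 nt, as in TRAF7, in 905 (76.6%). In ILRUN the nearest 5' ends were 16 nt apart, a gap reached by 43 regions (3.64%). With 1 read in 1 of the experiments, each gene rests on a single fragment on 1 side of this comparison.

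The 5' ends of TRAF7 were the most uniform among the regions rich in reads. In experiment 2, 19 regions had at least 50 reads, and the share of reads at the most used 5' end ranged from 62.2% to 99.4% with a median of 93.6%. The highest was that of TRAF7, and 13 of the 19 lay above ILRUN. TRAF7 also had the most 3' ends for each 5' end, 8.5 against a median of 2.67, while ILRUN had 2. Other regions came close to TRAF7, which had 17 3' ends for 2 5' ends. The region chr15:99250937-99251000 had 16 for 2, with 98.1% of reads at the most used 5' end. The region chr17:79826025-79826131 had 30 for 4, with 95.6%. TRAF7 had 12.5 copies per read and ILRUN 18.3, against a median of 21.9. These ranks are descriptions of 1 experiment, and the 19 regions were chosen by their read number.

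Mapping quality, the deposited score from 0 to 70, had a median of 70 in each gene and experiment except ILRUN in experiment 2, with 66. All reads of EIF2AK2 and the single reads of TRAF7 and ILRUN in experiment 1 had a quality of 70. This was also the median of 61% of regions in that experiment. In experiment 2, 156 of 164 reads of TRAF7 had 70, and the other 8 were 21 to 30 nt long, with qualities from 14 to 67. Of its reads, 4 lay under 30.

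ILRUN had a median of 66 in experiment 2. The median of all reads of that experiment was also 66, but reads of ILRUN are most of those with that score. Of the 1181 regions, 436 had a lower median there and 8, ILRUN included, had 66, while 703 (59.5%) had a median of 70. In experiment 2, 96 of the 129 reads of ILRUN had a quality of 66 and 15 had 70. None lay under 30, and the lowest was 31. These 96 reads were 81.4% of the 118 reads with a quality of 66 in experiment 2, while TRAF7 had 0 such reads. The 3 most copied reads of ILRUN, with 2184 copies together, had 70. Of its 100 reads of 1 copy, 10 had 70 and 72 had 66. In TRAF7, 120 of 128 reads of 1 copy and all 36 reads of more copies had 70.

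**Figure D4:**
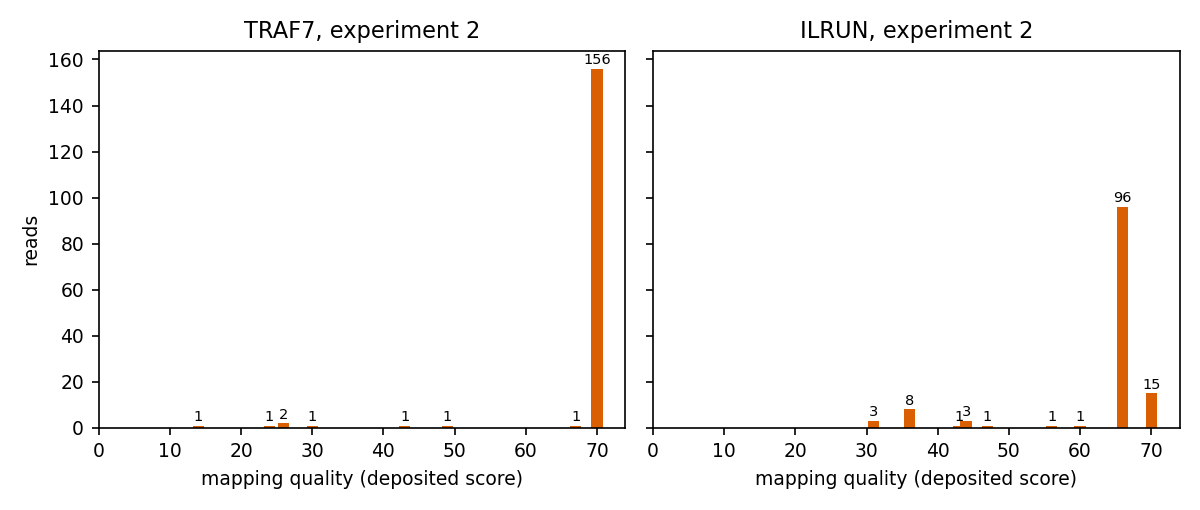
Number of reads at each mapping quality (bars, with the number above) for TRAF7 and ILRUN in experiment 2. TRAF7 has 156 of 164 reads at 70, and ILRUN has 96 of 129 at 66.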

How the data were processed

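The authors worked on build hg19 with bedtools, SAMtools, Novoalign and CASAVA 1.8.2, per the submitters' processing notes. How the regions were made, and whether control reads were used for it, is not given in the sources used here, nor is the order of these tools. The deposited score of a read, a whole number from 0 to 70, was read as its mapping quality. Start and end are the other deposited values, printed 1-based. Read names were taken as prefix, copy number and rank, an inference from the values.

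Each read was assigned to the listed region it overlaps (0 reads fell outside), and regions to genes by gene limits and strand. Libraries are grouped as the labels number them. Shares were tested by Fisher's exact test over 1181 regions, at an adjusted p of 0.05. The test was run on simulated reads drawn independently of each other. Such a check cannot cover any dependence among reads that share the same ends. All members were named, a rule chosen with the lists when earlier results of these data were known. Alternatives covered strand, mapping quality, unit counted, totals, name groups, offsets and replicates. Versions were scipy 1.17.1, pandas 2.3.3, numpy 2.4.6, matplotlib 3.10.9 and Python 3.11.15.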

Additional observations from a re-analysis of the deposited data

How the results depend on the processing

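Over 44 alternatives, 33 left the value, or the direction with its side of the threshold, as it was. Part of these could hardly differ. The listed regions have reads of both experiments, so leaving out a replicate keeps them. A region is short beside its gene, so its midpoint has nearly the position of its 5' end. The 3 regions were found on either strand, with mapping quality of 30 or more and without replicate 1 or 2 (3 in each), and the median quality of their reads was 70 without either replicate. The number of regions of different share, 54 over all, was 5 by distinct fragments, 14 with totals and tests without regions of at least 50 reads (which leaves TRAF7 and ILRUN untested) and 27, 25 and 24 in the name groups 06, 07 and no prefix, each with fewer reads. Of the fall by distinct fragments, the cause was not tested. ILRUN passed by reads and not by distinct fragments (log2 ratio 6.43 and 3.58). By summed copies the log2 ratios were 8.58 for TRAF7, 8.79 for ILRUN and -5.00 for EIF2AK2. Matching ends, 0 of 3 genes, became 2 by the 5' end alone, 1 at 0 nt and 1 at 1 nt, by the construction of that rule, which was chosen after seeing the data. Over all regions, matches fell from 1019 to 223 at offset 0, and by the 5' end alone from 1072 to 248 at 0 nt. No paired analysis was possible because no column says which pull-down a read is from. The 1 to 4 reads in an experiment limit every ratio.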
